A study of Mus musculus with 12 samples.

Results

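Cells watch their cytosol for misplaced nucleic acid. DNA outside the nucleus is bound by the enzyme cGAS, which makes a cyclic dinucleotide that activates STING on the endoplasmic reticulum, whereas the helicases RIG-I and MDA5 bind viral or self double-stranded RNA and signal through MAVS on mitochondria. Both routes meet at the kinase TBK1 and the transcription factor IRF3, which switch on type I interferon genes, and the nucleases and phosphohydrolases TREX1 and SAMHD1 limit the DNA that could set them off. ZBP1 recognises nucleic acid in the Z form and can start necroptosis. In T cells these proteins are present without infection, and several of their genes are themselves induced by interferon.

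The 10 genes examined here are Cgas, Sting1, Trex1, Samhd1, Tbk1, Irf3, Ddx58 (RIG-I), Ifih1 (MDA5), Mavs and Zbp1. They were taken by symbol from a table of 55291 gene symbols, which lists STING as Sting1 in place of Tmem173. The set was chosen with earlier results of these data known. Of the 10 genes, 9 had enough counts to be tested, among 19010 symbols. The RNA came from CD8+ T cells of lymph node and spleen of WT or Dock8 KO mice, activated and expanded for 3 days and then kept for 24 h either in media or embedded in bovine collagen (Nutragen) at 2 mg/mL, through which the cells migrate. Each of the 4 groups (WT media, WT gel, KO media, KO gel) held 3 libraries, and the labels give n = 3 mice per group. The sources used here give no strain, age, sex or Dock8 allele, and do not say if a mouse gave both a media and a gel library. DOCK8 is an exchange factor for the GTPase Cdc42, and the series title places it in the protection of the nucleus of migrating T cells.

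Totals ran from 28483064 to 61390702 counts per library. Dock8 stood at 363 to 450 CPM (the count normalised to the scaled library total) in WT libraries and at 109 to 168 CPM in KO libraries, without overlap. The KO gel libraries stood apart in the number of genes expected at the lowest depth, a Poisson estimate from the counts. It was 27113 to 28478 in KO gel and 23200 to 24281 in the other 9. Mitochondrial transcripts took 2.27 to 2.61% of the counts in KO gel, against 1.34 to 2.31% in the other 9. These ranges overlapped through KO media library 2, at 2.31%. Loci resembling ribosomal RNA made up 18.6% of WT gel library 2 and 12.3% of KO media library 3, against 3.84 to 9.36% elsewhere. The 8 markers of CD8 T cells summed to 3160 to 3340 CPM in KO gel and 3250 to 3640 in KO media. In WT cells they summed to 3520 to 3760 with gel and 3500 to 3830 without. All but Cd8a (595 CPM in KO gel, 590 in KO media) had their lowest mean in KO gel. Among them, Cd3e and Cd8a had group means of 175 to 202 and 590 to 670 CPM. The 14 markers of macrophages and dendritic cells summed to 37.7 to 49.7 CPM in KO gel and 41 to 49.1 in KO media, and in WT cells to 20.8 to 37.3 with gel and 20.7 to 37.5 without. Most of that sum was Itgax, which activated T cells also express, while C1qa was at 0 in all groups and Lyz2 had group means of at most 0.244 CPM. Markers of erythroid cells and platelets summed to 12.3 to 26.2 CPM in KO gel, against 4.69 to 9 in the other groups. That gap lay in Itga2b, Pf4 and Ppbp, with means of 9.54, 4.88 and 3.59 CPM in KO gel and at most 3.27, 1.68 and 1.59 elsewhere. Gata1 had a mean of 1.18 CPM in KO gel and 1.17 to 1.63 elsewhere, and the globin genes Hbb-bs and Hba-a1 reached at most 0.309 and 0.118. The 7 markers of neutrophils and mast cells summed to 3.06 to 5.99 CPM in KO gel and 1.18 to 3.11 in KO media. In WT cells they summed to 0.957 to 1.22 with gel and 0.512 to 1.2 without. Cpa3 was the largest part of them in KO gel (mean 2.67 CPM). The part of these library differences in the results below was not tested. In bulk RNA, fewer cells of a type and less RNA per cell cannot be told apart.

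Trex1, which encodes the main cytosolic exonuclease for DNA, was listed with 0 counts in all 12 libraries. A count of 0 allows up to 3 counts, or 0.0472 to 0.119 CPM, but that limit holds for counts given to this symbol and not for the transcript. In the GENCODE M21 annotation of GRCm38, Trex1 lies on chromosome 9 (109057933 to 109059734, minus strand), and 100% of its 1147 exon bases fall within exons of Atrip, a gene of the replication checkpoint on the same strand (109057933 to 109074124). Of 114 protein-coding genes whose exons lie wholly inside same-strand exons of other genes, 114 had no count in any library, against 10.9% of 19843 genes free of such overlap. The table thus gives no measure of Trex1. Atrip stood at 19.0 to 22.7 CPM over the 12 libraries, was called in no comparison, and does not stand in for Trex1. For the other members the exon overlap was small. It reached 4.9% of exon bases for Cgas (with the gene model Gm8093) and 2.6% for Irf3 (with Bcl2l12), both on the opposite strand, and was 0 for the rest.

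Per kilobase of exon, the members differed widely in level over the 12 libraries. Samhd1, with 59.0 CPM per kb (SD 5.27, n = 12), and Sting1, with 51.7 (SD 4.57), were the most abundant, and their ranges overlapped (49.7 to 72.1 and 43.7 to 57.8). Tbk1 followed at 19.4 CPM per kb (SD 1.14), and its range of 17.8 to 21.8 touched that of Zbp1 (10.9 to 17.8). Irf3 (14.0, SD 0.701), Zbp1 (13.5, SD 2.06) and Ddx58 (11.5, range 9.6 to 14.1) had overlapping ranges. Mavs came next at 8.89 CPM per kb (SD 0.696), overlapping only with Ddx58 at its upper end of 10.3. Cgas, at 4.09 (SD 0.48), and Ifih1, at 1.44 (SD 0.177), overlapped with no other member. Cgas and Ifih1 were thus the lowest per length and Samhd1 and Sting1 the highest, while the sensor genes Ddx58 and Zbp1 lay between.

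Promoter sequences were at hand for 8 of the 10 genes (RefSeq, GRCm38.p6; none for Zbp1 or Sting1). They are shown for the genes of RIG-I, MDA5 and SAMHD1, the members in whose windows a searched motif was found, as the 250 bases before the annotated start, 5′ to 3′ on the gene's strand, with capitals for the motif matches named below.
Ddx58: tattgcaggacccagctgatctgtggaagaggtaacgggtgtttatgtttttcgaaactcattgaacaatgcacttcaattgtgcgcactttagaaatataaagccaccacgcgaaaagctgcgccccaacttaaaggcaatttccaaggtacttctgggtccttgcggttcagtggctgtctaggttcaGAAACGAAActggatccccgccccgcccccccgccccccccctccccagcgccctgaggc
Ifih1: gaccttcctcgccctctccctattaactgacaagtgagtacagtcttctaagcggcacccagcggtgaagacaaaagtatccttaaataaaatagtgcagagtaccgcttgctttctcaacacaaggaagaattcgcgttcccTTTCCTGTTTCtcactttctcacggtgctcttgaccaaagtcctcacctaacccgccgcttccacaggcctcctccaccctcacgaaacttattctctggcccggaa
Samhd1: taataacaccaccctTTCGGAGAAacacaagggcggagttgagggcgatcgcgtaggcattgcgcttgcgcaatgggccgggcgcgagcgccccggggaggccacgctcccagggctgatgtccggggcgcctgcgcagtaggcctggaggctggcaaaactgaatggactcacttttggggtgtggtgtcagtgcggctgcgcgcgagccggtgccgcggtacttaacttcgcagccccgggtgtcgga
These windows are chr4:40239826-40240075, chr2:62646256-62646505 and chr2:157135097-157135346, each on the minus strand. The interferon response element was searched as GAAANNGAAA and, for the other strand, TTTCNNTTTC, and was found in 0 of the 9 windows of the 8 genes, against 2.98% of 32851 promoter windows of that length. The STAT site TTCNNNGAA, which reads the same on both strands, occurred once, in Samhd1, from -235 to -227 relative to the start (7.02% of all windows). Closer or wider pairs of GAAA runs, which the sequences themselves prompted, were searched as GAAANGAAA and GAAANNNGAAA on both strands. Ddx58 held GAAACGAAA from -60 to -52, a pair spaced by 1 base (2.68% of all windows), and Ifih1 held TTTCCTGTTTC from -107 to -97, a pair spaced by 3 bases on the other strand (2.38%). A match is a description of letters and not a shown binding site.

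Both genes of the DNA arm were called lower in KO gel than in WT gel in the reported fit. Of 21 alternative fits, 15 held that call for Cgas and 12 for Sting1. Scaling by total counts or by the upper quartile held neither. Cgas, which encodes the cytosolic DNA sensor (chromosome 9, 78430526 to 78443237), stood at 17.6, 18.1 and 18.6 CPM in the WT media libraries, 16.9, 17.9 and 16.4 in those of WT gel, 17.4, 18.9 and 19.2 in those of KO media and 13.25, 14.5 and 14.0 in those of KO gel. All 3 KO gel libraries lay below the other 9, which overlapped among themselves. Within KO cells Cgas fell by 24.8% in gel (log2 fold change -0.41, SE 0.07, adjusted p 0.00174, quasi-likelihood F test of edgeR, adjusted over all genes after Benjamini and Hochberg, as throughout). Against WT gel it fell by 18.5% (-0.29, SE 0.07, adjusted p 0.0157 in the same edgeR test). In WT cells the gel value was -0.09 (95% interval -0.24 to 0.07). The difference between the gel responses of the genotypes was -0.33 (SE 0.10, adjusted p 0.0978 in edgeR's test), which did not pass the threshold.

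Sting1, the adaptor that cGAS activates (chromosome 18, 35733679 to 35740554), stood at 157, 137 and 150.5 CPM in the WT media libraries, 154, 144 and 158.5 in those of WT gel, 150.6, 132 and 135 in those of KO media and 129.8, 119.9 and 131.5 in those of KO gel. The KO gel libraries lay below those of WT gel with a clear gap and below KO media by a margin of under 1 CPM. Against WT gel, Sting1 fell by 16.4% (log2 fold change -0.26, SE 0.07, adjusted p 0.0323 in edgeR's test). Within KO cells the gel value was -0.13 (95% interval -0.29 to 0.03, adjusted p 0.219 in edgeR's test), and in WT cells it was 0.04 (-0.13 to 0.20). KO against WT in media gave -0.09 (-0.25 to 0.07).

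Of the genes that limit the trigger, only Samhd1 could be measured. It encodes a phosphohydrolase that depletes deoxynucleotides (chromosome 2, 157097533 to 157135265). Its levels were 511, 556 and 659.5 CPM in the WT media libraries, 515, 542 and 564.5 in those of WT gel, 525, 455 and 533 in those of KO media and 563, 512 and 543 in those of KO gel. The 4 groups overlapped. Gel against media gave -0.09 in WT (95% interval -0.29 to 0.11) and 0.10 in KO cells (-0.11 to 0.30), and KO against WT gave -0.19 in media (-0.39 to 0.01) and -0.004 in gel (-0.21 to 0.20). A change of Samhd1 in gel between the genotypes by more than about 0.2 on the log2 scale lies outside the last interval.

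**Figure D1:**
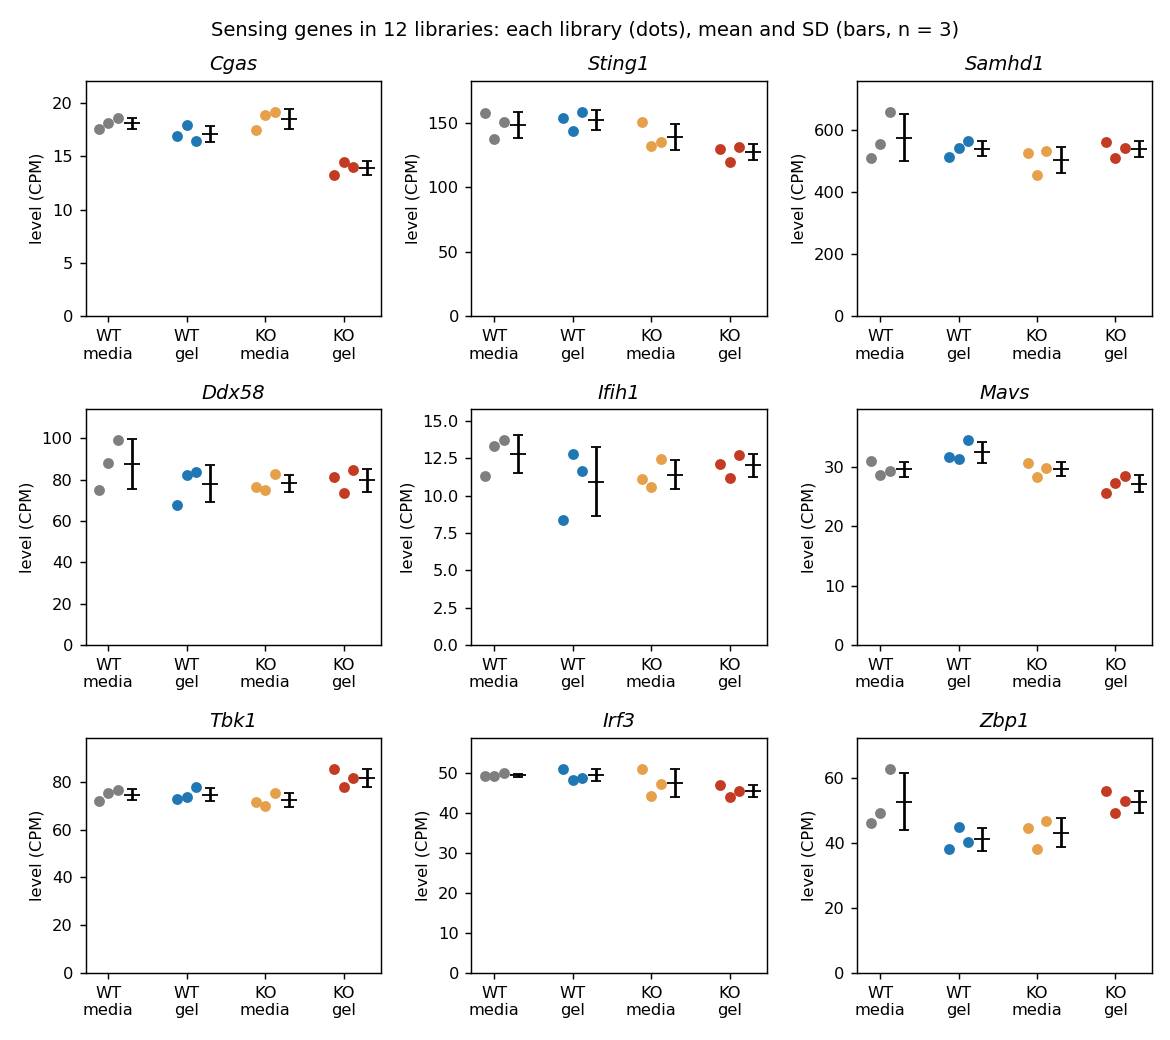
Level of each of the 9 measurable sensing genes in CPM (vertical axis, from 0) in the 4 groups, with 1 dot per library and the mean and SD (n = 3) beside them. Cgas in KO gel (13.25 to 14.5 CPM) lies below all other libraries, Tbk1 in KO gel lies at or above the highest of them, and Ddx58, Ifih1 and Samhd1 overlap across groups.

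Neither RNA sensor was called in any comparison of the reported fit or in any alternative fit. Ddx58, which encodes RIG-I, a sensor of short double-stranded and triphosphate RNA (chromosome 4, 40203773 to 40239828), stood at 75.3, 88.2 and 99.2 CPM in the WT media libraries, 67.7, 82.5 and 83.8 in those of WT gel, 76.7, 75.3 and 82.7 in those of KO media and 81.1, 73.5 and 84.5 in those of KO gel. Ifih1, which encodes MDA5, a sensor of long double-stranded RNA (chromosome 2, 62595798 to 62646255), stood at 11.3, 13.3 and 13.7 CPM in the WT media libraries, 8.34, 12.8 and 11.7 in those of WT gel, 11.1, 10.6 and 12.5 in those of KO media and 12.1, 11.2 and 12.7 in those of KO gel. Every group of both genes overlapped with every other, and WT gel library 1 was the lowest of the 12 for both. Their log2 fold changes lay between -0.17 and 0.03 for Ddx58 and between -0.23 and 0.14 for Ifih1 over the 4 pairs of groups. For Ifih1 the interval in WT cells ran from -0.52 to 0.06, which still holds a fall of that size.

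Mavs, the mitochondrial adaptor of both RNA helicases (chromosome 2, 131234063 to 131248025), was the member of the RNA arm called in the reported fit. It stood at 31.0, 28.6 and 29.3 CPM in the WT media libraries, 31.6, 31.3 and 34.5 in those of WT gel, 30.7, 28.3 and 29.9 in those of KO media and 25.65, 27.2 and 28.5 in those of KO gel. The WT gel libraries were the 3 highest of the 12, and the KO gel libraries lay below all WT libraries and overlapped with KO media. Against WT gel, Mavs fell by 16.5% (log2 fold change -0.26, SE 0.07, adjusted p 0.021 in edgeR's test), a call held in 14 of 21 alternative fits. Neither side of that gap was called alone: gel against media gave 0.13 in WT (SE 0.07, adjusted p 0.945) and -0.13 in KO cells (SE 0.07, adjusted p 0.192), both in edgeR's test. The difference between these responses was -0.26 (SE 0.10, adjusted p 0.156 in edgeR's test).

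The kinase and the transcription factor shared by both routes did not pass the threshold in the reported fit. Tbk1, whose product phosphorylates STING, MAVS and IRF3 (chromosome 10, 121546455 to 121586787), stood at 71.9, 75.3 and 76.5 CPM in the WT media libraries, 72.8, 73.4 and 77.6 in those of WT gel, 71.6, 69.7 and 75.3 in those of KO media and 85.4, 77.6 and 81.7 in those of KO gel. The KO gel libraries were the 3 highest, the lowest of them by less than 0.1 CPM. Gel against media in KO cells gave 0.18 (SE 0.06, adjusted p 0.0513 in edgeR's test), just short of the threshold and called in 7 of 22 alternative fits, DESeq2 among them, and KO against WT in gel gave 0.13 (SE 0.06, adjusted p 0.169). Irf3 (chromosome 7, 44997648 to 45002848) stood at 49.4, 49.3 and 50 CPM in the WT media libraries, 51.2, 48.4 and 48.9 in those of WT gel, 51.1, 44.3 and 47.3 in those of KO media and 47.05, 44.1 and 45.7 in those of KO gel. KO gel lay below WT gel without overlap, yet the value of -0.12 (95% interval -0.25 to 0.02) was not called, and the other 3 pairs of groups gave -0.06 to -0.002.

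The gel response of Zbp1 differed between the genotypes. Zbp1 encodes the sensor of Z-form nucleic acid (chromosome 2, 173206612 to 173218923) and is a gene that interferon induces. Its levels were 46.3, 49.2 and 62.9 CPM in the WT media libraries, 38.3, 45.1 and 40.3 in those of WT gel, 44.8, 38.4 and 46.8 in those of KO media and 56.1, 49.2 and 52.9 in those of KO gel. In WT cells all gel libraries lay below all media libraries, and in KO cells all gel libraries lay above all media libraries. Against WT gel, KO gel was 1.28-fold higher (log2 fold change 0.36, SE 0.11, adjusted p 0.0445 in edgeR's test). This call in gel was held in 11 of 21 alternative fits (0.30 to 0.46). It was lost with limma-voom and when KO gel library 1, 2 or 3 was left out. Gel against media gave -0.36 in WT (SE 0.11, adjusted p 0.661) and 0.28 in KO cells (SE 0.11, adjusted p 0.0793), neither called by edgeR. The difference between these responses was 0.64 (SE 0.16, 95% interval 0.31 to 0.98, adjusted p 0.0395 in edgeR's test). That call was held in 1 of 12 fits that each left out 1 library, with values of 0.49 (without WT media library 3, the highest one) to 0.72 and adjusted p of 0.00873 to 0.114 in edgeR's test.

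Counted together, 0 of the 9 members were called in WT gel against WT media, where 0.0368% of all genes were, and 0 in KO against WT in media, where 0.189% were. In each of these 1 member, Zbp1, had an unadjusted p under 0.05 in edgeR's test, beside 5.43% and 7.49% of all genes, and DESeq2 and limma-voom called 0. These comparisons allow the replicate number as a block, set within genotype for WT gel against WT media and over all groups for KO against WT in media. With these blocks edgeR called 0 members in either (4 and 2 at an unadjusted p under 0.05). Over all genes 96 were higher and 75 lower in the first, and 14 higher and 43 lower in the second. The block over all groups gave 8 higher and 2 lower in WT gel against WT media. Both fits also blocked the KO gel libraries, whose numbers were not taken as pairs. In KO gel against KO media 1 member was lower and 0 higher, beside 9.74% and 11.1% of all genes (20.8% in either direction). In KO against WT in gel 3 were lower and 1 higher, beside 7.71% and 7.12% of all genes (14.8% in either direction). Among the 9919 more abundant genes (mean log2 CPM 3 or above), which include these 9, 13.3% were lower and 3.99% higher. For the difference between the gel responses 1 member was called, beside 3.35% of all genes. The median log2 fold change of the 9 in gel between the genotypes was -0.004, and that of all genes was 0. Groups that did not overlap were seen for 2 members in WT gel against WT media (9.18% of all genes), 4 in KO gel against KO media (47.4%), 0 in KO against WT in media (10.7%) and 6 in KO against WT in gel (38.2%). Both calls of Cgas rest on the same 3 KO gel libraries, so they are not separate evidence.

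**Figure D2:**
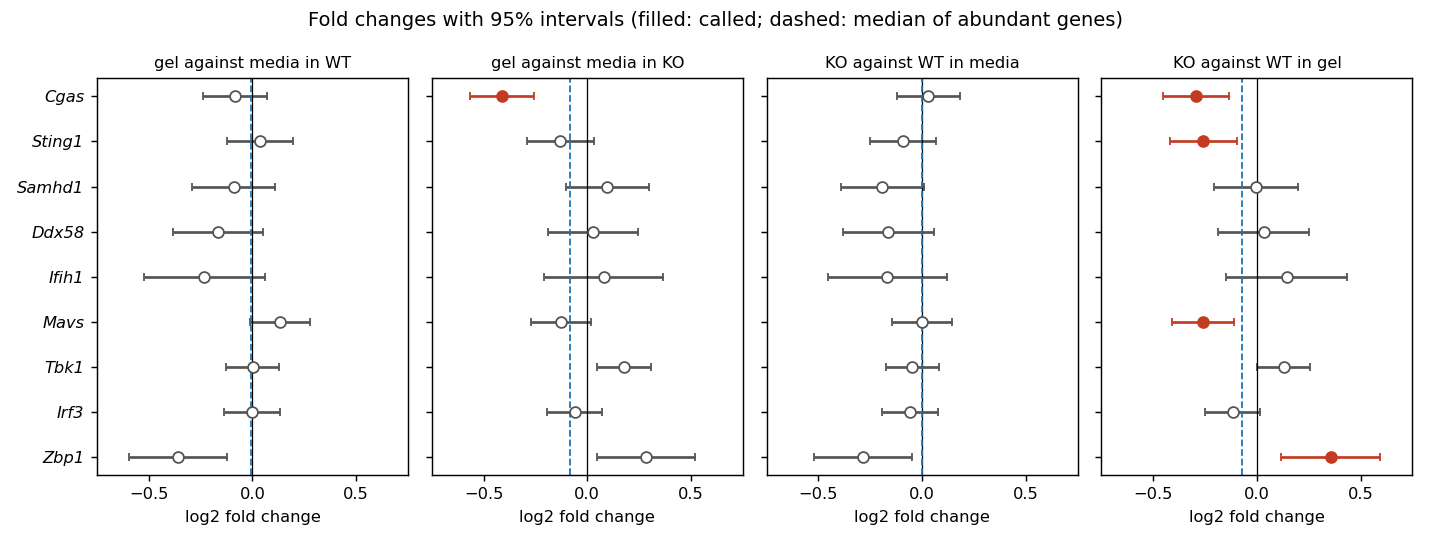
Log2 fold change (horizontal axis) of the 9 members in the 4 pairs of groups, with 95% intervals from edgeR's fit. Filled red points passed the adjusted p of 0.05, and the dashed line is the median of the 9919 more abundant genes, which lies at -0.09 in KO gel against KO media and at -0.07 in KO against WT in gel.

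The lower calls in gel between the genotypes depended on the scaling. With TMM factors, used here, the median of all genes in that comparison was 0, and scaling by total counts alone moved it to 0.10. With total counts 1 of the 4 calls in gel was held, Zbp1 (0.46), while Cgas (-0.19, adjusted p 0.183), Sting1 (-0.16, adjusted p 0.342) and Mavs (-0.16, adjusted p 0.306) were not called by edgeR, and all genes split into 1875 higher and 407 lower in place of 1354 and 1465. Upper-quartile scaling, and a fit of the 9919 more abundant genes alone, each called Zbp1 and Tbk1 higher and none lower. Without WT gel library 2 and KO media library 3, rich in ribosomal RNA, edgeR called 0 of the 4, with 4 at an unadjusted p under 0.05. Without KO gel library 1 it also called 0. The fall of Cgas within KO cells was called in each of the 22 alternative fits (-0.46 to -0.33, largest adjusted p 0.0179).

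**Figure D3:**
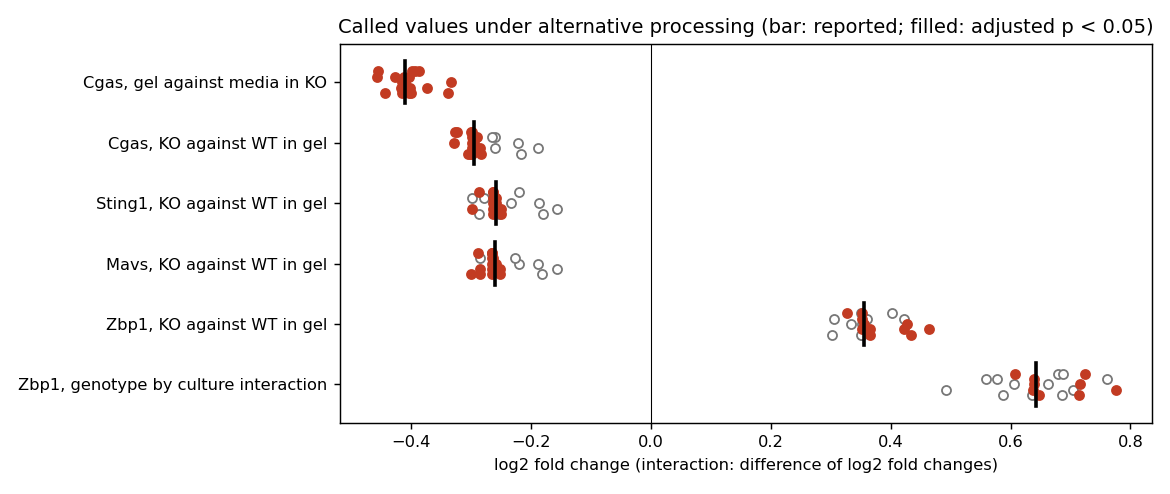
Values called in the reported fit (black bars) and the same values under each alternative (dots, filled red where the adjusted p was under 0.05), on the log2 scale; in the last row the value is the difference between the gel responses of KO and WT. All dots lie on the same side of 0 as the bar, and the row of Cgas within KO cells holds filled dots alone.

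The genes whose levels followed a member most closely over the 12 libraries were listed by Pearson's r of log2 CPM among 8576 candidates, as a description in which the 3 KO gel libraries and their composition are shared by all points. For Cgas they were Cenpi (0.978), Dhx9 (0.973) and Supt16 (0.972), and for Sting1 they were Yipf3 (0.981), Ctsa (0.954) and Coro1b (0.953). For Zbp1 they were Stat2 (0.95), Rtp4 (0.939) and Gbp2 (0.933). Ddx58 went with Vwa5a (0.934) and Ifi206 (0.928), Ifih1 with Ddx58 (0.885), and Samhd1 with Uba7 (0.972), Slc35a2 (0.962) and Adar (0.929). Among pairs of members the highest values were Ddx58 with Ifih1, Sting1 with Irf3 (0.847), Sting1 with Mavs (0.826) and Samhd1 with Ddx58 (0.808). Cgas reached at most 0.468, with Mavs, and its value with Tbk1 was -0.807.

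Around the members, 166 further genes of the pathway were grouped into 9 lists, and 159 of them had enough counts to be tested. None of these was called by edgeR in WT gel against WT media or in KO against WT in media, with 19 (11.9%) at an unadjusted p under 0.05 in each, against 5.43% and 7.49% of all genes. With the replicate block within genotype, edgeR called Tnfaip3 higher and Ifit3, Irf7, Irf9 and Xaf1 lower in WT gel against WT media. With the block over all groups it called Tnfaip3 lower in KO against WT in media. These genes were named after their calls were seen. In KO gel against KO media 16 rose (10.1%, all genes 11.1%) and 27 fell (17%, all genes 9.74%). In KO against WT in gel 18 were higher (11.3%, all genes 7.12%) and 22 lower (13.8%, all genes 7.71%). Among the more abundant genes, 6.35% rose and 16.8% fell in the first of these, and 3.99% were higher and 13.3% lower in the second. The lists below are to be read beside these shares.

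Upstream, among 20 DNA sensors and regulators, 1 rose and 5 fell in KO gel against KO media (median -0.086, against -0.007 for all genes and -0.085 for the more abundant genes, to which 17 of the 20 belong). The chromatin proteins Hmgb1 (-0.36) and Hmgb2 (-0.34), which also bind cytosolic DNA, and Banf1 (-0.40), which encodes the barrier-to-autointegration factor that keeps cGAS off chromatin, fell, and so did the helicase gene Dhx9 (-0.20), with adjusted p of 0.000892 to 0.0248 in edgeR's test. The 5 that fell are 25% of the list, beside 9.74% of all genes and 16.8% of the more abundant ones. Against WT gel 1 was higher and 3 lower (5% and 15%, beside 7.12% and 7.71% of all genes). Aim2, the inflammasome sensor of double-stranded DNA, was higher by 0.41 (SE 0.08), while Polr3c (-0.26), Tlr9 (-0.72) and Hmgb2 (-0.20) were lower. With total counts as the scaling, 0 rose and 3 fell within KO cells, and 2 of the list were higher and 0 lower against WT gel. The calls of Dhx9 within KO cells, and of Polr3c, Tlr9 and Hmgb2 against WT gel, were each held in 1 of 3 other scalings (DESeq2's size factors, total counts and upper quartile).

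Of 17 tested RNA sensors and cofactors, 3 were higher and 0 lower in KO gel against WT gel (median -0.009; 7.12% of all genes were higher). They were the oligoadenylate synthetase-like genes Oasl1 (1.32, SE 0.28) and Oasl2 (1.32, SE 0.29), both at group means under 1.5 CPM, and the helicase gene Ddx60 (0.66, SE 0.20). None of the 3 is among the more abundant genes, and in a fit of those alone edgeR called 0 of the list's 10, with 2 at an unadjusted p under 0.05. Against KO media Oasl2 rose by 1.10 and Tkfc, an MDA5 inhibitor, fell by 0.35 on the log2 scale.

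Of 21 genes that carry STING or turn it over, 2 were higher and 6 lower in KO gel against KO media and 1 higher and 6 lower against WT gel. The lower ones are 28.6% of the list in each, beside 9.74% and 7.71% of all genes and 16.8% and 13.3% of the more abundant ones. Against WT gel the list's lower genes included Rnf26, a ubiquitin ligase of the endoplasmic reticulum that binds STING (-0.56, SE 0.08), the volume-regulated anion channel genes Lrrc8c (-0.37) and Lrrc8a (-0.33), through which cyclic dinucleotides pass, and the trafficking gene Tmed10 (-0.23). Within KO cells Tmed10 (-0.34) and Lrrc8c (-0.34) fell, and Ulk1, an autophagy kinase gene, rose by 0.41. With total counts as the scaling 2 were higher and 2 lower within KO cells, and 1 higher and 1 lower against WT gel. The call of Tmed10 against WT gel was held in 1 of the 3 other scalings, and those of Lrrc8c and Lrrc8a in 2.

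Around TBK1, 2 of 22 adaptors and kinases were higher and 2 lower in KO gel against WT gel (median 0.02). Each is 9.09% of the list, beside 7.12% higher and 7.71% lower among all genes. Tnfaip3, which encodes the inhibitor A20, was higher by 0.39 (SE 0.08) and Sqstm1, an autophagy receptor gene, by 0.29 (SE 0.08). The death-domain adaptor gene Fadd (-0.38) and Ticam1, the adaptor of the endosomal RNA receptor TLR3 (-0.40), were lower. Scaled by total counts, 5 were higher and 0 lower.

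The pool that SAMHD1 acts on is filled by the genes of deoxynucleotide supply. Of 16 deoxynucleotide supply genes, 8 fell and 0 rose in KO gel against KO media (median -0.40) and 7 were lower against WT gel (median -0.26). These are 50% and 43.8% of the list, beside 9.74% and 7.71% of all genes and 16.8% and 13.3% of the more abundant ones, to which 15 of the 16 belong. They included thymidine kinase Tk1 (-0.60 and -0.67, SE 0.07 each) and the ribonucleotide reductase gene Rrm1 (-0.54 and -0.53, SE 0.06 each), and with total counts as the scaling 1 of the list was higher and 6 were lower against WT gel. Of 18 nucleic acid clearance genes, 2 rose and 4 fell against KO media, and 1 was higher and 3 lower against WT gel. The lower ones are 22.2% and 16.7% of the list, beside 9.74% and 7.71% of all genes and 16.8% and 13.3% of the more abundant ones. The flap nuclease gene Fen1 fell by 0.54 within KO cells, and Rnaseh2a and Rnaseh2b, subunits of the RNase H2 that removes RNA from DNA, fell by 0.38 and 0.35. Pld4, an endolysosomal nuclease gene, was lower against WT gel (-0.997, SE 0.19), whereas Dnase1l3, a secreted DNase gene at group means under 1 CPM, was higher (1.34, SE 0.38). Of the 12 tested genes of necroptosis and pyroptosis, 0 rose and 2 fell within KO cells, among them Ripk3, the kinase that ZBP1 recruits (-0.29, SE 0.07). These 2 are 16.7% of the list, near the 16.8% of the more abundant genes that fell there, beside 9.74% of all genes. The call of Ripk3 was held in 2 of the 3 other scalings.

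**Figure D4:**
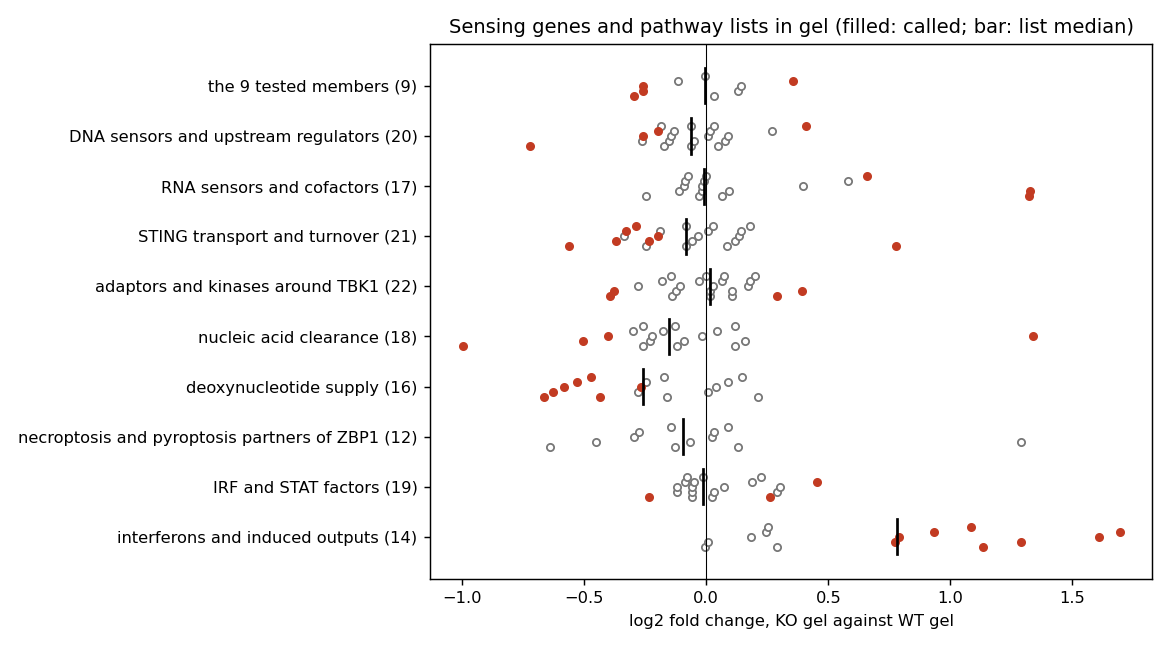
Log2 fold change of KO gel against WT gel (horizontal axis) for the 9 tested members and 9 pathway lists, with the number of tested genes in brackets. Each dot is a gene, filled red where the adjusted p was under 0.05, and black bars are medians, which lie at 0.78 for interferons and induced outputs, at -0.26 for deoxynucleotide supply and at -0.004 for the members.

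The outputs of the pathway form the last list. Of 14 tested interferon and interferon-induced genes, 7 rose and 0 fell against KO media (median 0.42) and 8 were higher and 0 lower against WT gel (median 0.78), beside 11.1% and 7.12% of all genes that were higher. In a fit of the more abundant genes alone, 1 of the list's 6 was called in each comparison, and the medians were 0.17 and 0.33. The antiviral genes Ifit1 (1.12 and 1.69) and Mx1 (0.79 and 0.93) and the chemokine gene Cxcl10 (2.15 and 1.61) were called in both, and with total counts 6 and 9 of the list were higher. Most were low: Ifit1 had a mean of 1.36 CPM (WT gel) and 4.39 CPM (KO gel), and Cxcl10 of 0.549 and 1.59 CPM. A low gene could enter the test through KO gel alone, so the list's medians cover only the members that passed. The type I interferon genes themselves were under the limit for testing: Ifnb1, named after its values were seen, had a mean of 0.0166 CPM in KO gel. Among 19 IRF, STAT and NF-κB factors and receptors, 2 were higher and 1 lower against WT gel (10.5% and 5.26%, beside 7.12% and 7.71% of all genes). The NF-κB subunit gene Nfkb2 was among the higher ones (0.26, SE 0.06), and Irf4 was lower (-0.24, SE 0.07), a call held in 1 of the 3 other scalings.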

How the data were processed

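Total RNA was made into libraries after removal of ribosomal RNA, per the labels' protocols. The deposited table holds a raw count per gene symbol and library. HISAT2, featureCounts, SAMtools, Picard, FastQC and MultiQC, with build GRCm38 (mm10), are named in the list of tools per the submitters' processing notes. Versions, annotation, strand setting and treatment of duplicate or multiply assigned reads: not given in the sources used here; reads that overlap several genes, as at Trex1, depend on that setting. The table held 0 columns of other samples.

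Genes were kept by filterByExpr (19010), scaled by TMM and tested with edgeR 4.0.16 in R 4.3.3 (robust quasi-likelihood F test, 1 fit of 4 groups, 5 contrasts, Benjamini-Hochberg over all genes, called under 0.05). Standard errors are the absolute log2 fold change over the square root of F. Log2 CPM used a prior count of 2. DESeq2 1.42.0 and limma 3.58.1 (voom) were alternatives, besides other scalings, filters, replicate blocks and left-out libraries. Exon lengths and positions came from GENCODE M21. Libraries with the same replicate number had deviations from the group means that correlated at 0.238 to 0.796 between WT media and WT gel and at 0.17 to 0.382 between WT media and KO media, which allows a replicate block there. The correlations were -0.04 to 0.2 within KO and -0.454 to 0.151 between the gel groups, which does not. The pairing comes from these values, since the labels name no shared mice. P-values rest on the spread between libraries within groups, with 3 libraries per group. That spread was estimated over all 12 libraries in 1 fit and moderated across genes.

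All members are named. From each pathway list up to 4 called genes per contrast are taken in order of p (some are not reported here), and the 3 genes most alike per member were computed among those with log2 CPM averaging 3 or more, not all of which are printed. The members and lists were chosen with earlier results of these data known.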

Additional observations from a re-analysis of the deposited data

Results flagged for a closer look

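For 12 of the genes described, the response to gel differed between the genotypes by a test of that difference (the interaction of genotype and culture in edgeR's quasi-likelihood test, Benjamini-Hochberg adjusted over all genes). They are named because they were called. Such calls were made for 1 of the 9 tested members. Of the 159 tested pathway genes, 3.77% had a higher and 5.66% a lower response in KO cells. The shares were 1.89% and 1.45% over all genes, and 1.01% and 2.67% among the more abundant genes. Values are the log2 response in KO minus that in WT cells, with 3 libraries per group. Zbp1 had 0.64 (adjusted p 0.0395), with gel below media in WT libraries and above media in KO libraries, without overlap in either genotype. Its call was held in 1 of 12 fits that each left out 1 library, and was lost without WT gel library 2 and KO media library 3. Higher responses in KO cells were also found for Ifit1 (1.75), Oasl2 (1.74), Mx1 (0.77), Tnfaip3 (0.69) and Nfkb2 (0.35). Lower responses were found for Tk1 (-0.65), Rrm1 (-0.58), Rrm2 (-0.52), Fen1 (-0.48), Lrrc8c (-0.36) and Tmed10 (-0.34). The adjusted p of these 11 ran from 0.00316 (Ifit1) to 0.0494 (Lrrc8c) in edgeR's test. The calls of Fen1, Lrrc8c and Tmed10 were held in 1 of 3 other scalings (DESeq2's size factors, total counts and upper quartile) and those of Rrm1 and Rrm2 in 2. The number of genes with such a call over the whole table fell from 636 to 30 without WT gel library 2 and KO media library 3.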

How the results depend on the processing

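The number of the 9 members called depended on the processing. In WT gel against WT media it was 0, and 1 (Zbp1, lower) with no filter beyond 1 count. In KO gel against KO media it was 1, and 2 with DESeq2, with no filter and with a replicate block by number, 3 with upper-quartile scaling, with only the more abundant genes and with only the 6 KO libraries, and 4 with a replicate block within genotype. In KO against WT in gel it was 4, and 1 with total counts, 2 with upper-quartile scaling, 2 with only the more abundant genes, and 0 without WT gel library 2 and KO media library 3. For the difference between the responses it was 1, and 3 with the replicate block within genotype and 0 without those libraries. Leaving out 1 library at a time gave 0 to 0, 1 to 3, 0 to 0 (KO against WT in media), 0 to 4 and 0 to 1 in the same order. In gel between the genotypes the count was 2 when WT gel library 1 was left out and 1 for WT gel library 3, and it was 0, 1 and 2 when library 1, 2 or 3 of KO gel was. No called value changed sign in any alternative. The replicate block changed no member's call in the comparisons whose numbers pair the libraries (WT gel against WT media, KO against WT in media). Elsewhere the numbers were not taken as pairs, and the block within genotype also called Sting1, Tbk1 and Zbp1 within KO cells and the differences between the responses of Cgas (-0.33, adjusted p 0.0214) and Mavs (-0.26, adjusted p 0.0447 in edgeR's test). Over all genes, calls ran from 2 to 195 (reported 7), 2042 to 7804 (3962), 15 to 435 (36), 1444 to 4156 (2819) and 30 to 3431 (636) over the alternatives. The cause of these changes was not tested. At 3 libraries per group, what could be called depended on the comparison. In KO gel against KO media and in KO against WT in gel, the limit differed by gene. For genes with an SE near 0.06 it lay at about 0.2 on the log2 scale, as for Dhx9 (-0.20, called within KO cells). Genes with a wider spread needed more: Zbp1 at 0.28 (SE 0.11) within KO cells was not called (adjusted p 0.0793 in edgeR's test). In WT gel against WT media, Zbp1 at -0.36 was not called in the reported fit (adjusted p 0.661 in edgeR's test). The difference between the responses of Cgas, at -0.33, was not called there either (adjusted p 0.0978 in edgeR's test). In none of these comparisons does a lack of calls alone exclude differences above 0.2.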

Other observations

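The listing of Trex1 at 0 has company. The 114 protein-coding genes whose exon bases all lie inside same-strand exons of other genes in GENCODE M21 include, named after the list was seen, Exosc6, a subunit of the RNA exosome, Adat3, a subunit of a tRNA deaminase, Pet117, a cytochrome oxidase assembly factor, Gdf1, Kiss1, C1qtnf5 and Snurf. All of them had 0 counts in the 12 libraries. Of 1549 genes with part of their exon bases inside such exons, 5.9% had no count in any library.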
